A study of Mus musculus with 10 samples.

Results

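The protein-coding genes of the mitochondrial ribosome were described in T and B lymphocytes taken as primary cells from mouse spleen. They were taken by symbol, as every gene named Mrps or Mrpl followed by a number and at most 1 letter, which gave 78 of the 56893 genes in the deposited table of read counts. Of these, 29 carry a small-subunit symbol (Mrps) and 49 a large-subunit symbol (Mrpl). Poly(A) RNA had been sequenced after CRISPR interference, in which guide RNAs bring inactive Cas9 to a promoter and so repress it. The promoters targeted were those of Pou2f1, the gene of the octamer-binding transcription factor Oct-1. T cells formed 2 groups, mock-treated or given sgRNA-P1, the guide for promoter P1. B cells formed 3 groups, mock-treated, given sgRNA-P1 or given sgRNA-P2, the guide for promoter P2. All groups are labelled as primary cells of spleen. The sources used here give no strain, sex, age or number of mice, no repressor construct, no method of cell selection and no time after delivery.

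Each group has 2 columns in the table, and these differed by less than sampling noise, so they were summed and taken as 1 sample. Each gene's counts in the 2 columns matched a single count divided in a fixed proportion to within 1 read, with a mean chi-square per gene of 0.00231 to 0.00283. The summed libraries held 28118839 to 71858511 reads. With 1 library per group, differences between groups have no replicate check, and the brackets below are 95% counting intervals of those libraries. Levels are given in CPM, the library-scaled read count after TMM, and differences as log2 fold changes. A size rule of 1.5-fold stands in place of a test, and it was applied where the higher group reached 5 CPM. T-cell markers summed to 3833 and 3836 CPM in the T-cell libraries and to 46.3 to 47.4 CPM in the B-cell libraries. B-cell markers summed to 9390 to 9400 CPM in B cells and to 17.6 and 18.1 CPM in T cells.

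The mitochondrial ribosome translates the mRNAs of the mitochondrial genome, which encode core subunits of the respiratory chain and of ATP synthase. Its rRNAs come from the mitochondrial genome, while its proteins are encoded in the nucleus, made in the cytosol and imported. Part of these proteins descend from the bacterial ribosome and part exist only in mitochondria. The small subunit holds the mRNA and its decoding site, and the large subunit holds the peptidyl transferase centre and the exit tunnel at the inner membrane. Lymphocytes are known to enlarge their mitochondria when they are activated.

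By place in the solved structure, 46 members are homologues of bacterial subunits and 31 are mitochondria-specific. The symbol and the structure differ for 3 members. Mrps18a and Mrps30 sit in the large subunit, and Mrps36 is a subunit of the 2-oxoglutarate dehydrogenase complex, so the structure counts 26 small and 51 large subunits. The members are spread over 17 chromosomes, with 11 on chromosome 11 and 8 on chromosome 17 (mm39). For 22 members (28.2%) an expressed gene on the other strand started at most 1000 bases upstream of the annotated start, against 12.8% of 10964 genes at 5 CPM. Starts that overlapped by up to 100 bases were included. Starts that overlap further, such as those of Mrpl46 and Mrps11, were not counted. Several of these neighbours also act in mitochondria or in protein synthesis. Mrps12 faced Sars2, the mitochondrial seryl-tRNA synthetase, Mrpl36 faced Ndufs6, a subunit of complex I, and Mrpl49 faced Fau, a fusion of a ubiquitin-like protein with a cytosolic ribosomal protein.

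Promoter windows of 300 bases, from 250 before to 50 after the annotated start, were found in RefSeq (GRCm38.p6) for 69 of the 78 members. The ETS core CCGGAAG, read on both strands, was in the windows of 26 members (37.7%), against 22.6% of 8195 genes at 5 CPM and 9.93% of all genes with a window. The YY1 letters AAGATGGC were in 12 (17.4%, against 5.93% at 5 CPM and 3.19% of all). The NRF1 letters GCATGCGC were in 8 (11.6%, against 6.60% and 3.05%), and where they form a palindrome the matches on both strands overlap and are counted separately. At least 1 of these 3 motifs was in 38 windows (55.1%), against 31.7% of the windows of genes at 5 CPM. The octamer ATTTGCAT was in none of the 69, against 1.60% at 5 CPM. Of the 31 ETS matches, 22 lay within 50 bases of the start. NRF1, ETS factors of the GABP type and YY1 are known as regulators of nuclear genes for mitochondrial proteins. A match is only a run of letters in these windows, and binding was not measured here.

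Windows of 6 members are printed because the results below turn on them or because the window is rich in matches. Mrpl58, Mrpl9, Mrpl33 and Mrps5 differed most between T and B cells among members without an expressed overlap or copy (cut-offs are given with the processing). Mrpl55 was the member past 1.5-fold under a guide. Mrpl32 held 4 NRF1 matches, more than any other member printed here. Capitals mark matches to the motifs on either strand.
Mrpl58 (chr11:115403502-115403801, plus strand): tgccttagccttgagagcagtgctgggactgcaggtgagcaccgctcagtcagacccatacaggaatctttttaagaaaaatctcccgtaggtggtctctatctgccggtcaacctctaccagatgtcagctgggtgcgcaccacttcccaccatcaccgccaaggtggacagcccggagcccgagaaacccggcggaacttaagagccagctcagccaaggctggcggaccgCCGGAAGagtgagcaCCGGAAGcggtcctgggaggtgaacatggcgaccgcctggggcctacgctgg
Mrpl9 (chr3:94443086-94443385, plus strand): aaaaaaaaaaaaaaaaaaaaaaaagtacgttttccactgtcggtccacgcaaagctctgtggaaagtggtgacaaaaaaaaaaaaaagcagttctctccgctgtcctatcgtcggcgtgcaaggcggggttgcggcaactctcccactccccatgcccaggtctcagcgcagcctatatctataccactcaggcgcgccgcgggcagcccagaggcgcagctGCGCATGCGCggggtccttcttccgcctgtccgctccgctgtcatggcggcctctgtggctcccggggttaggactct
Mrpl33 (chr5:31613701-31614000, plus strand): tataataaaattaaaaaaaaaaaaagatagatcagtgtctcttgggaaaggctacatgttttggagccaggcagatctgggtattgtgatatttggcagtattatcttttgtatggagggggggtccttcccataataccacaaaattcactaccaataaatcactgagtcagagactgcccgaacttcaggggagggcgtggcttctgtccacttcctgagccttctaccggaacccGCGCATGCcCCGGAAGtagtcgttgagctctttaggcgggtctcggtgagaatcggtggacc
Mrps5 (chr2:127587176-127587475, plus strand): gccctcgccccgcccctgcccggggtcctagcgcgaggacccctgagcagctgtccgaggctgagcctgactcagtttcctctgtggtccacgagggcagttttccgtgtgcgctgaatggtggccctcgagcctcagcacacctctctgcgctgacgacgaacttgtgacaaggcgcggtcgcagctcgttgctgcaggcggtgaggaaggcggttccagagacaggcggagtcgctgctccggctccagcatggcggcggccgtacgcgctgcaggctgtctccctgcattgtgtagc
Mrpl55 (chr11:59202236-59202535, plus strand): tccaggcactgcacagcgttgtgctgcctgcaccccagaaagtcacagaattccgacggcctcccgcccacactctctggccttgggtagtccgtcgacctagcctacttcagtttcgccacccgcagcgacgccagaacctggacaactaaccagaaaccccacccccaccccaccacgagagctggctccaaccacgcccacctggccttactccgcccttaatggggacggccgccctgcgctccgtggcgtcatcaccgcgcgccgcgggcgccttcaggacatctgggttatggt
Mrpl32 (chr13:14612988-14613287, minus strand): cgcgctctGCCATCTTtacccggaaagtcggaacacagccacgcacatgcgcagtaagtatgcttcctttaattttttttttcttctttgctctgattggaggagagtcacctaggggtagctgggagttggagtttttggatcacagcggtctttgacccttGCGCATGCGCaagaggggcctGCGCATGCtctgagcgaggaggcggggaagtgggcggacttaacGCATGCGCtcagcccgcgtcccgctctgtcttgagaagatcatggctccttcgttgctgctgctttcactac
In the Mrpl58 window the ETS core stands 17 and 2 bases before the start, and in the Mrpl9 window the NRF1 palindrome begins 28 bases before it. The Mrpl33 window holds an NRF1 match and an ETS match next to each other. No match to the 4 motifs was found in the windows of Mrps5 and Mrpl55.

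All 78 members had reads in every library, and 75 reached 5 CPM in every group. The median level per merged exon length (TPM) was 29.04 for mock and 29.7 for sgRNA-P1 in T cells. In B cells it was 27.5 for mock, 25.1 for sgRNA-P1 and 25.9 for sgRNA-P2. The medians of all genes at 5 CPM were 29.3 to 30.7 TPM, so a typical member was expressed at about the level of a typical expressed gene. Within a library the members ranged widely, from 4.15 to 155.5 TPM in mock T cells.

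**Figure D1:**
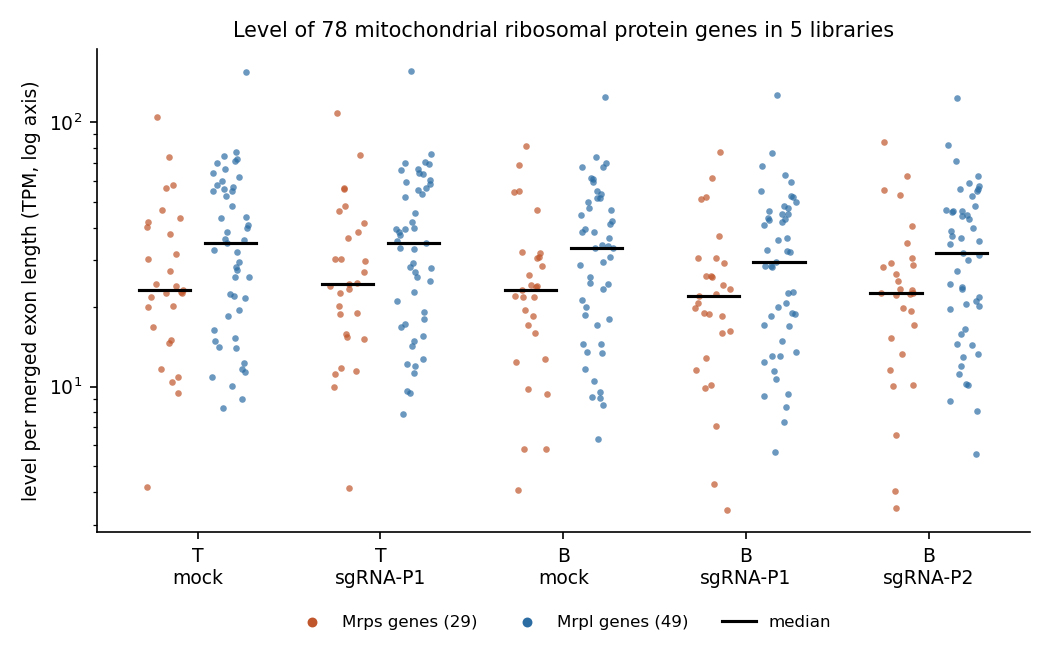
Level per merged exon length (TPM, log axis) of the 29 Mrps and 49 Mrpl genes in each of the 5 libraries; each point is a gene and each bar a median. The medians lie between 22.0 and 35.1 TPM, and the highest point in every library is Mrpl24.

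Mrpl24, a homologue of a bacterial protein that starts the assembly of the large subunit, had the highest level, with 155.5 and 156.3 TPM in T cells and 123.8 to 126.6 TPM in B cells. It was followed, on the mean of the mock libraries, by Mrps23 (93.3 TPM), Mrpl54 (73.9), Mrps21 (71.2) and Mrpl2 (70.4). Mrpl2 belongs to the conserved core around the peptidyl transferase centre. The lowest were Mrps25 (4.10 TPM), Mrps34 (8.70), Mrpl17 (8.72), Mrpl47 (8.99) and Mrpl33 (8.99). Neighbours in this order are close, and Mrpl17, Mrpl47 and Mrpl33 cannot be ranked. Genes on the other strand share exon bases with several of these members. The shares are 69.8% for Mrps25 (Nr2c2), 63.4% for Mrps34 (Mapk8ip3), 13.9% for Mrpl47 (Ndufb5) and 26.3% for Mrpl24 (Mettl25b). Their levels and places are therefore uncertain, and the part of these overlaps in the values was not tested. The order also rests on the length used. With the length of a reference transcript in place of merged exons, Mrpl33 moved from place 74 to place 6, because 7326 bases of merged exons stand against a transcript of 478 bases. Only 1 of the 5 highest members and 3 of the 5 lowest were the same under both lengths.

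Across the 5 libraries most members varied little. The highest level was at least 1.5-fold the lowest for 10 members (12.8%), against 45.5% of 10964 genes at 5 CPM. The median of this ratio was 1.23 for members and 1.43 for all genes. It was under 1.2 for 31 members and reached 2 for 4, namely Mrps6 (4.21), Mrpl58 (2.73), Mrpl27 (2.27) and Mrpl33 (2.20). Mrps34, Mrpl9, Mrps5, Mrps28, Mrpl55 and Mrpl57 made up the rest of the 10.

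The summed level of all members was 1841 CPM for mock and 1840 CPM for sgRNA-P1 in T cells. In B cells it was 1730 CPM for mock, 1664 CPM for sgRNA-P1 and 1690 CPM for sgRNA-P2. Both T-cell libraries therefore lay above the 3 B-cell libraries. An exact two-sided permutation test over libraries gave p = 0.1, the smallest value that 2 against 3 libraries allow (0.117 after Benjamini-Hochberg adjustment over the 7 sums and shares compared). The test takes mock and guided libraries of a cell type as replicates, which they are not. It could not have given a smaller p, so no conclusion is drawn from it. In mock cells the ratio of sums was 0.09 on the log2 scale [0.07, 0.11] higher in T cells.

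Small-subunit genes took 35.3% [35.0, 35.7] of member reads for mock and 35.7% [35.2, 36.1] for sgRNA-P1 in T cells (exact binomial intervals). In B cells they took 34.3% [33.8, 34.9] for mock, 34.5% [34.1, 35.0] for sgRNA-P1 and 34.6% [34.0, 35.2] for sgRNA-P2. The means were 35.5% in the T-cell libraries and 34.5% in the B-cell libraries, and the libraries did not overlap (exact permutation p = 0.1, again the smallest possible). Without Mrps5, taken out after its values were seen (73.5 CPM in T and 41.8 CPM in B mock cells) while other members higher in T cells were kept, the shares were 32.7%, 32.9%, 32.7%, 32.8% and 32.9% in the same order. The means were then 32.8% in both cell types (exact permutation p = 0.7), and this share is among the 7 in the adjustment above. Since the share was chosen after its values were seen, this is a description only. Guides moved the share by less than the width of its interval in both cell types.

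**Figure D2:**
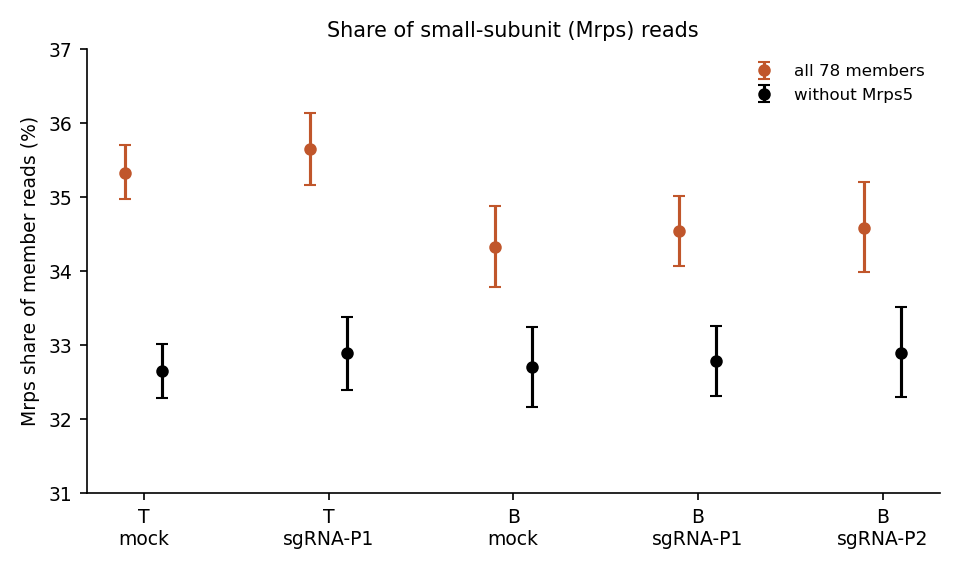
Share of member reads from Mrps genes in each library, in percent, with exact 95% binomial intervals that cover counting error only (the axis begins at 31%). With all 78 members the T-cell libraries lie above the B-cell libraries, and without Mrps5 all 5 lie between 32.7% and 32.9%.

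Most mitoribosomal protein genes differed by less than 1.5-fold between mock T cells and mock B cells, and the few larger differences were all toward T cells. The median log2 fold change of T over B was 0.032, against 0.020 over 10804 genes, and 43 members were higher and 35 lower. Past 1.5-fold, 7 members were higher in T cells (18.6% of all genes were) and 0 were lower (18.4% of all genes were). In either direction this is 7 of 78, against 37% of all genes. It was 8 once a trend on GC content and length over all genes was subtracted. Counting intervals lay above 0 for 25 members, against 40.1% of all genes, and below 0 for 15, against 36.8%. In bulk libraries a difference in RNA per cell cannot be told apart from a difference in the share of cells that express the gene.

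Mrpl58 encodes a peptidyl-tRNA hydrolase built into the large subunit that can release stalled chains. In T cells it stood at 29.9 CPM for mock and 30.7 CPM for sgRNA-P1, against 11.3, 11.2 and 12.4 CPM in mock, sgRNA-P1 and sgRNA-P2 B cells. It was thus 2.65-fold higher in mock T cells (log2 1.40 [1.19, 1.64]), with no overlap between the cell types. The gene lies at chr11:115294578-115303500 (mm39, plus strand) in 4 merged exon blocks.

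Mrps5, a homologue of a bacterial protein near the decoding site, stood at 73.5 and 75.6 CPM in T cells and at 41.8, 43.3 and 42.6 CPM in B cells (log2 0.81 [0.70, 0.94] between the mock libraries; chr2:127429142-127448749). Zfp661, whose start faces that of Mrps5 at 128 bases, was at 9.01 and 8.31 CPM in the mock libraries, a difference of 0.12. Mrpl9, a large-subunit homologue of bacterial L9, stood at 53.6 and 52.9 CPM in T cells and at 30.98, 28.5 and 30.8 CPM in B cells (log2 0.79 [0.65, 0.93]; chr3:94350625-94358437). Both genes formed 2 separate levels by cell type, with little change under the guides.

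Mrpl33 stood at 23.7 and 25.7 CPM in T cells and at 13.4, 12.2 and 11.7 CPM in B cells (log2 0.82 [0.61, 1.05]; chr5:31754279-31821728). Mrpl27, whose bacterial counterpart reaches into the peptidyl transferase centre, stood at 11.2 and 10.8 CPM in T cells and at 6.68, 4.92 and 5.73 CPM in B cells (log2 0.74 [0.43, 1.05]). It shares 7.61% of its exon bases with Eme1 on the other strand, which was at 1.12 to 1.74 CPM in all libraries.

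The remaining members past 1.5-fold were low and uncertain. Mrps6 stood at 6.23 and 6.44 CPM in T cells and at 2.57, 1.54 and 1.53 CPM in B cells (log2 1.26 [0.81, 1.80] between mock libraries). Its overlap with Slc5a3, an inositol transporter gene on the same strand, covers 10.4% of its exon bases, and Slc5a3 itself stood at 22.3 CPM in T and 7.27 CPM in B mock cells. Mrps34, a mitochondria-specific small-subunit protein, stood at 6.66 and 6.56 CPM in T cells and at 3.46, 4.32 and 3.88 CPM in B cells (log2 0.94 [0.54, 1.40]). Mapk8ip3 covers 63.4% of its exon bases on the other strand and stood at 271 CPM in T and 223 CPM in B mock cells. How the counting shared out reads of such overlaps is not given in the sources used here, and their part in these values was not tested.

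Toward B cells the differences were smaller. The lowest were Mrpl43 (6.29 CPM in T and 9.34 CPM in B mock, log2 -0.57 [-0.87, -0.27]), Mrpl45, which anchors the ribosome at the inner membrane (20.5 and 28.8 CPM, -0.49 [-0.66, -0.32]), Mrpl1 (13.0 and 18.0 CPM, -0.47), Mrpl16 (13.4 and 18.3 CPM, -0.45) and Mrpl55 (7.41 and 9.93 CPM, -0.42). Mrpl43 shares 33.4% of its exon bases with Twnk, the mitochondrial helicase gene, on the other strand, so it is uncertain. In T cells Mrpl43, Mrpl45, Mrpl1 and Mrpl16 stayed below all 3 B-cell libraries, while Mrpl55 overlapped them.

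**Figure D3:**
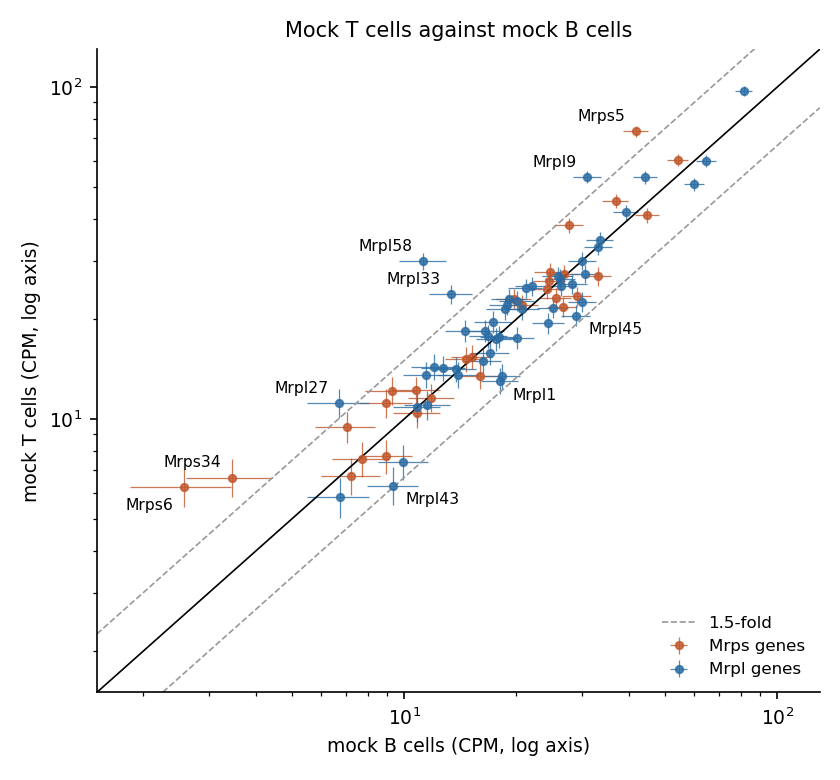
Level of the 78 members in mock T cells against mock B cells (CPM, both axes log); bars are exact 95% counting intervals, the solid line marks equal levels and the dashed lines 1.5-fold. The 7 members above the upper dashed line are named, as are Mrpl43, Mrpl45 and Mrpl1 below the solid line.

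A fit over all 5 libraries, with cell type and guide as terms, gave a test of the cell-type difference. It used edgeR's quasi-likelihood test with 2 residual degrees of freedom, takes both guides to act alike in both cell types, and measures spread between guided and mock libraries, not between animals. It called 38 of 78 members at an adjusted p (FDR) under 0.05, 23 higher and 15 lower in T cells, against 64.2% of all 17581 genes tested (32.4% higher and 31.8% lower). This share was alike in the subunits, with 14 of 29 Mrps and 24 of 49 Mrpl genes. With total reads in place of TMM the split was 27 higher and 8 lower, while over all genes it was 6021 and 5250 (64.1% called). DESeq2 on the same terms called 16 higher and 5 lower, all 21 of them among the 38. Over all genes it called 4839 higher and 4938 lower (55.6%).

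In this fit the largest changes toward T cells were those of Mrps6 (log2 1.71, edgeR FDR 1.42e-06), Mrpl58 (1.38, FDR 1.06e-09), Mrpl33 (0.97, FDR 1.79e-07), Mrpl27 (0.89), Mrpl9 (0.81), Mrps5 (0.80), Mrps34 (0.77) and Mrps28 (0.59). Mrps28 was at 9.44 and 10.4 CPM in T cells and at 7.005, 6.06 and 6.62 CPM in B cells. Toward B cells they were those of Mrpl43 (-0.45, FDR 0.00498), Mrpl45 (-0.44), Mrpl16 (-0.42), Mrpl49 (-0.41), Mrpl1 (-0.30), Mrps7 (-0.29), Mrps18a (-0.24) and Mrpl39 (-0.23). Mrps7 shares 5.74% of its exon bases with Mif4gd on the other strand (62.9 CPM in T and 259.8 CPM in B mock cells). Mrpl49 shares 4.85% with Syvn1 on the other strand (52.8 and 278.1 CPM). Both are therefore uncertain, and the part of these overlaps in the values was not tested. Of the members whose symbol and structure differ, Mrps18a was called lower in T cells, while Mrps30 (0.16, FDR 0.0638) and Mrps36 (-0.17, FDR 0.193) were not called.

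In the same fit 82 of 87 cytosolic ribosomal proteins were called, 80 of them higher in T cells. Their median was 0.474 in the fit and 0.329 between the mock libraries (82 genes at 5 CPM). The fit takes the guides to act alike in both cell types. With sgRNA-P1 the median of these genes was 0.052 in T cells and -0.217 in B cells. Between the mock libraries Rps16 (log2 0.79), Rplp0 (0.75) and Rplp1 (0.73) differed most. The reads of these genes made up 6.99% and 7.27% of the T-cell libraries and 4.49% to 5.27% of the B-cell libraries. Many of these genes have near-identical processed pseudogenes, so their single values are uncertain.

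Calls among the partners of the mitochondrial ribosome stand against the same 64.2% of all genes. Of 5 subunit genes without the Mrp symbol, Dap3, a GTP-binding small-subunit protein, was called higher in T cells (75.0 and 57.7 CPM in mock cells, log2 0.37 in the fit, FDR 2.64e-05), as was Aurkaip1 (0.24, FDR 0.0261). Of 14 translation factors tested, 6 were called and all 6 were lower in T cells, among them Mtrfr (-0.45), Gfm2, a ribosome recycling factor (-0.48), and Oxa1l, the insertase of the inner membrane (-0.40). Of 26 assembly genes 8 were called, 5 of them higher in T cells, with Rbfa (0.45) and Mtg2 (0.44) among them, while Trub2 differed by -0.36 between the mock libraries and was not called. Of 17 mitochondrial tRNA synthetases 8 were called, 5 of them higher, with Mars2 (-0.42) and Vars2 (0.44) among them. Of 13 genes of mitochondrial transcription and its regulation 8 were called, 3 of them higher and 5 lower in T cells. Myc (-1.41) and Tfam, which packages mitochondrial DNA (-0.48), were lower in T cells and the coactivator Ppargc1b (0.96) was higher. Its relative Ppargc1a, under 5 CPM in all libraries, was lower in T cells (0.0971 CPM in T and 4.49 CPM in B mock cells, log2 -5.59 in the fit, FDR 7.65e-10).

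Pou2f1, the gene targeted, was lower in all 3 guided libraries. Its level in T cells was 138.1 CPM for mock and 66.1 CPM for sgRNA-P1 (log2 -1.06). Its level in B cells was 156.7 CPM for mock, 91.1 CPM for sgRNA-P1 (-0.78) and 86.5 CPM for sgRNA-P2 (-0.86). Across the 5 libraries no member was called for the guide term by edgeR's quasi-likelihood test. It called 0 of 78 members (0 at an unadjusted p under 0.05), against 0.0284% of all genes, or 5 of 17581 (2.43% at an unadjusted p under 0.05). DESeq2 also called 0 members. At so low a share over all genes, 0 of 78 does not set the members apart. With 2 residual degrees of freedom, a gene that is not called may still have changed.

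In T cells the members were close to their mock levels. The median log2 fold change with sgRNA-P1 was -0.003, against -0.016 over 10007 genes, and 69 of 78 members lay within 1.1-fold. Of the 78, 40 were lower, against 58.6% of all genes. Past 1.5-fold there were 0 members, against 0.11% of all genes. The summed level differed by -0.001 [-0.020, 0.017]. The median was 0.029 for Mrps and -0.016 for Mrpl genes.

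The members farthest from their T-cell mock level stayed within 1.2-fold of it. The highest were Mrpl14 (5.81 CPM mock, 6.84 CPM guided, log2 0.24 [-0.09, 0.55]), Mrpl44, with its RNase III fold (0.19), Mrpl18 (0.17 [0.01, 0.34]), Mrpl43 (0.16) and Mrps14 (0.15). The lowest were Mrps18a (23.2 and 20.5 CPM, -0.18 [-0.35, -0.01]), Mrpl4 (-0.15 [-0.28, -0.03]), Mrpl10, a protein of the stalk base (-0.14), Mrpl49 (-0.13) and Mrps12 (-0.13). Counting intervals left out 0 for 4 members, 1 above and 3 below, against 4.37% of all genes above and 10.4% below.

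In B cells with sgRNA-P1 the members were slightly lower than in mock B cells by their median, an offset that was 0.000 (38 higher, 38 lower) once a trend on GC content and length over all genes was subtracted. The median was -0.063, against -0.008 over 10062 genes, and 49 of the 76 members at 5 CPM were lower (52% of all genes were). The median was -0.081 for Mrpl genes, 34 of 49 of them lower, and -0.060 for Mrps genes, 15 of 27 of them lower. Counting intervals lay below 0 for 11 members, against 15.6% of all genes, and above 0 for 2, against 17.7%. The summed level was -0.056 [-0.078, -0.035] against mock.

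Mrpl55, a small large-subunit protein of the bacterial L31 family, was the 1 member past 1.5-fold, against 0.258% of all genes lower and 0.735% in either direction. Its level was 9.93 CPM in mock B cells, 6.06 CPM with sgRNA-P1 and 7.01 CPM with sgRNA-P2, and 7.41 and 7.74 CPM in T cells. It was thus 1.64-fold lower with sgRNA-P1 (log2 -0.71 [-1.04, -0.38]) and 1.42-fold lower with sgRNA-P2 (-0.50 [-0.89, -0.14]). Both values share the same mock B library, which held the highest of the 5 levels. The neighbour that faces it at 49 bases, 2610507I01Rik, stood at 17.4, 17.1 and 16.1 CPM in the B-cell libraries. In the 5-library fit the guide term of Mrpl55 was not called.

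The next lowest with sgRNA-P1 were Mrpl27 (6.68 CPM mock, 4.92 CPM guided, log2 -0.44 [-0.83, -0.06]), Mrpl53 (13.9 and 10.4 CPM, -0.42 [-0.68, -0.16]), Mrpl57 (14.6 and 11.3 CPM, -0.37 [-0.62, -0.11]) and Mrps18c (-0.30 [-0.66, 0.06]). The highest were Mrpl50 (17.6 and 20.4 CPM, 0.21 [0.004, 0.427]), Mrpl18 (0.19), Mrpl19 (0.17), Mrpl39 (0.17 [0.01, 0.34]) and Mrpl54 (0.15). Mrps6, which is under 5 CPM in B cells and was left out of these counts, was at 1.54 CPM against 2.57 CPM in mock B cells (-0.74 [-1.40, -0.06]).

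Base composition moved with this comparison. Across 9703 genes Spearman's rho between the log2 fold change and the GC content of the transcript was -0.506, which describes genes of the same libraries and not replicates. Across the 76 members it was -0.189. The members' median GC content, 50.01%, was close to that of all genes at 5 CPM, 49.7%, but their transcripts were shorter, with a median of 1328 bases against 3063. With the trend on GC content and length subtracted, the median of Mrpl genes was -0.031 and that of Mrps genes 0.022. The library with sgRNA-P1 also held more mitochondrial RNA, at 3.79% of its reads against 2.54% in mock B cells and 2.85% with sgRNA-P2.

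With sgRNA-P2, set against the same mock library, the members were also close to their mock level. The median was -0.030, against -0.004 over 10061 genes, and 47 of 76 were lower, against 51.6% of all genes. It was -0.025, with 42 of 76 lower, after the trend on GC content and length. Past 1.5-fold there were 0 members, against 0.278% of all genes. The medians were -0.058 for Mrpl and -0.002 for Mrps genes, and the summed level was -0.034 [-0.058, -0.009]. After Mrpl55 the lowest were Mrpl2 (25.1 CPM mock, 18.7 CPM guided, log2 -0.42 [-0.65, -0.20]), Mrpl14 (-0.32), Mrpl1 (-0.29 [-0.56, -0.04]) and Mrpl49 (-0.28 [-0.48, -0.08]). The highest were Mrpl50 (17.6 and 21.0 CPM, 0.26 [0.02, 0.49]), Mrpl54 (0.21), Mrps12, at the decoding site (0.18), Mrpl47 (0.17) and Mrpl58 (0.14).

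**Figure D4:**
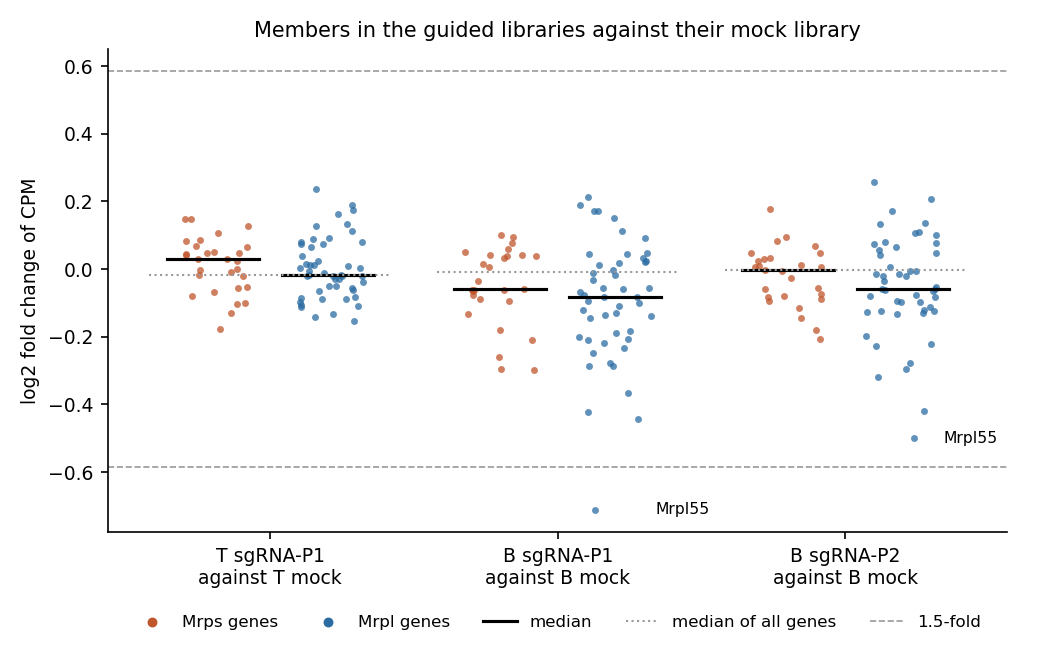
Log2 fold change of each member at 5 CPM or more in the higher group, guided against mock, for Mrps and Mrpl genes; black bars are their medians, dotted lines the median of all genes and dashed lines 1.5-fold. Both B-cell comparisons use the same mock library. Points lie within the dashed lines except Mrpl55 with sgRNA-P1 in B cells.

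The B-cell guides were also set against each other, which leaves out the shared mock library. The median of sgRNA-P1 over sgRNA-P2 was -0.050, against -0.002 over 10059 genes, with 48 of 76 lower (50.6% of all genes). It was -0.017, with 42 of 76 lower, after the trend on GC and length, and -0.016 among the 37 members at 20 CPM. Across all genes this comparison also moved with GC content (Spearman's rho -0.457). Past 1.5-fold there were 0 members, against 0.418% of all genes. The lowest were Mrpl53 (10.4 CPM with sgRNA-P1, 13.1 CPM with sgRNA-P2, log2 -0.33 [-0.60, -0.04]), Mrpl16 (15.9 and 19.8 CPM, -0.31 [-0.54, -0.08]), Mrpl28 (-0.25 [-0.47, -0.03]), Mrps18c (-0.24) and Mrpl57 (-0.24). The highest were Mrpl18 (21.6 and 17.2 CPM, 0.32 [0.10, 0.55]), Mrpl49 (0.22 [0.04, 0.41]), Mrpl32 (0.22 [0.03, 0.41]), Mrpl39 (0.18) and Mrpl1 (0.17). Mrpl18 shares 10.1% of its exon bases with Tcp1 on the other strand, which was at 185 and 183 CPM in these libraries. For Mrpl55 the difference between the guides was -0.21 [-0.58, 0.18], within counting error.

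The effect of sgRNA-P1 was compared between T and B cells for 76 members. None had a counting interval above 0 in one cell type and below 0 in the other, against 3.315% of 9139 genes. In T cells the intervals of only 1 member lay above 0 and of 3 below, so few members could meet this rule. The absence of such members does not set them apart. With 1 library per arm this difference has no test.

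The mRNAs that the mitochondrial ribosome translates were higher in B cells with sgRNA-P1. All 10 mitochondrially encoded mRNAs at 5 CPM were above their mock level, at a median of 0.718 (0.550 after the trend on GC and length), led by mt-Nd6 (213 and 560 CPM, log2 1.39), mt-Co2 (51.9 and 90.2 CPM, 0.80) and mt-Nd2 (1776 and 2994 CPM, 0.75). The summed level of these mRNAs was 13.0-fold and 12.2-fold that of the 78 members in T cells, 13.9-fold in mock B cells, 22.1-fold with sgRNA-P1 and 16.0-fold with sgRNA-P2. Both mitochondrial rRNAs were higher as well (mt-Rnr2 0.40, mt-Rnr1 0.33), with a median of 0.364 that was 0.171 after the trend. Mitochondrial transcripts have nuclear copies, and mt-Nd6 lies opposite its neighbours, so their values are uncertain. With sgRNA-P2 in B cells, set against the same mock library, 9 of the 10 mRNAs were also higher (median 0.201, mt-Nd6 0.64). In T cells with sgRNA-P1 the 10 mRNAs had a median of -0.043. The guide term of the 5-library fit called 0 of 13 mitochondrial mRNAs, against 0.0284% of all genes. Without the library of B cells with sgRNA-P1 it called 2, both higher, against 0.105% of all genes. That fit has fewer residual degrees of freedom than the 2 of the main fit. Its calls rest on a weaker measure of spread and cannot show whether the rise holds apart from that library.

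The lists of nuclear genes for the same process had medians between -0.097 and 0.029. With sgRNA-P1 in B cells 52% of all genes were lower. Of 25 assembly genes 19 were lower (median -0.097, or -0.034 after the trend on GC and length), with Rcc1l (-0.30), Nsun4 (-0.27) and Mterf3 (0.27) farthest from 0. Of 17 tRNA synthetases 12 were lower (median -0.083, or -0.072 after the trend), with Lars2 (-0.50), Fars2 (-0.30) and Sars2 (-0.24) farthest. The 14 translation factors were evenly split (median -0.020), with Mtrf1 (0.32), Tsfm (-0.27) and Mtrfr (0.18) farthest. The 12 transcription genes had a median of 0.029, with Mterf1a (0.45), Tefm (-0.26) and Gabpa, the GABP subunit that binds the ETS core (0.15), farthest. The subunits without the Mrp symbol had a median of -0.033, with Aurkaip1 at -0.25 (38.5 and 32.3 CPM). Cytosolic ribosomal proteins were lower for 80 of 82 (median -0.217, or -0.136 after the trend), with Rpl37a (-0.56), Rps21 (-0.53) and Rps19 (-0.52) lowest. With sgRNA-P2, against the same mock library, 79 of 82 were lower (median -0.111), against 51.6% of all genes. In T cells with sgRNA-P1 57 of 82 were higher (median 0.052), against 41.4% of all genes.

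**Figure D5:**
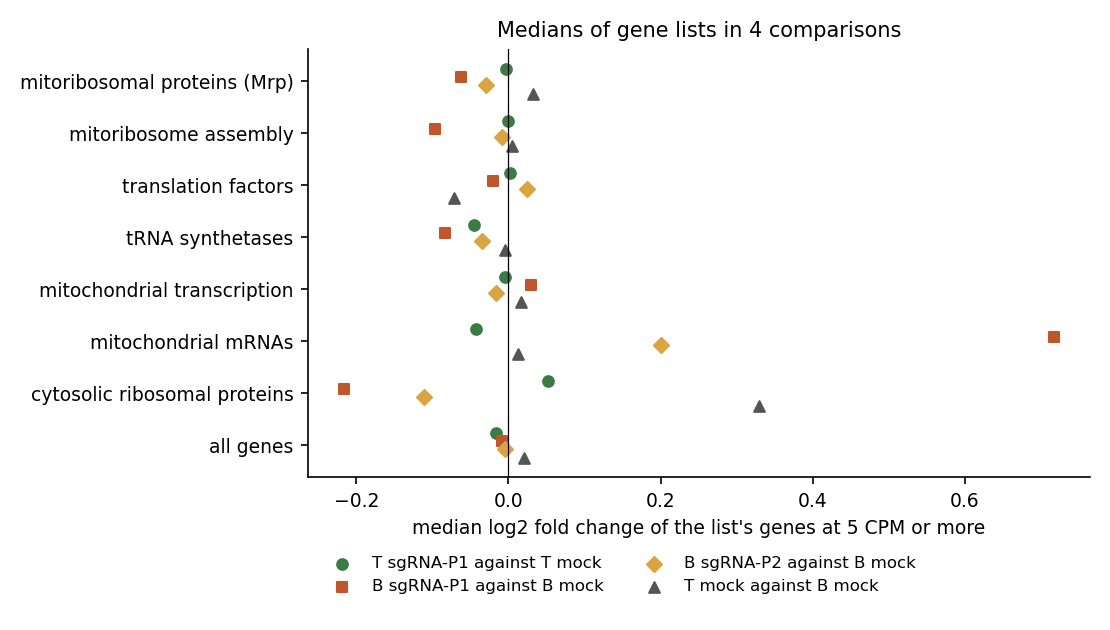
Median log2 fold change of the members, of related gene lists and of all genes in 4 comparisons, among genes at 5 CPM or more in the higher group. The mitochondrial mRNAs in B cells with sgRNA-P1 lie farthest from 0, at 0.718, while the members lie between -0.063 and 0.032.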

How the data were processed

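The counts analysed are whole reads per gene as deposited by the authors in 1 table. HISAT2 and featureCounts, and the builds hg38 and mm39, are named per the submitters' processing notes, without versions. The sources used here do not give strand and pairing settings or the treatment of reads that fit several places. The merged exon length per gene stands in another column of the deposited table. The table has 10 count columns and 0 columns of other samples.

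The members and lists were chosen with earlier results of these data known. Columns were mapped by the labels and the 2 columns of a group were summed. The deposited counts were scaled by TMM over the 5 libraries (edgeR 4.0.16, R 4.3.3), with factors of 0.982 to 1.015. Log2 fold changes used a prior of 1 read and a minimum of 5 CPM in the group with the higher level. Totals of few reads were even for 72.0% to 74.8% of genes, as counting both reads of a pair gives, so exact intervals were computed on reads divided by 2. Intervals cover counting error only. The 5-library fit used edgeR's quasi-likelihood test with Benjamini-Hochberg adjustment over 17581 genes, with DESeq2 1.42.0 as an alternative. Its p-values measure only the spread between these libraries, which may be technical.

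TPM was computed from the deposited counts and merged exon lengths. GC content and transcript length came from GENCODE M21 (GRCm38), where all 78 members had a value, and were subtracted as a robust spline trend over all genes at 5 CPM. Overlaps were read from the deposited exon coordinates (mm39), and copies were sought with blastn 2.17.0 among reference transcripts at 95% identity over 50% of the transcript. An expressed overlapping gene, at 1 CPM or more in a library and over at least 5% of the exon bases, was found for 20 members. An expressed copy, at 0.2 CPM or more in a library, was found for 17, which left 47 with neither by these cut-offs. Smaller overlaps, such as that of Mrpl49 with Syvn1 (4.85%), and copies with fewer reads were not counted. Named members are the 5 highest and 5 lowest by TPM and by fold change in each comparison, all past 1.5-fold, the 8 with the largest change in each direction in the fit, and 3 members with an uncertain subunit. Up to 3 genes per related list were named, and 1 gene that this rule takes is not reported here. Other members named were chosen after their values were seen.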

Additional observations from a re-analysis of the deposited data

How the results depend on the processing

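Direction in T cells with sgRNA-P1 is not set by these data. The members' median of -0.003 became 0.013 with total reads, 0.007 with DESeq2 size factors, 0.002 with a prior of 5 reads and 0.001 after the trend on GC and length, and the cause was not tested. After that trend the median of 0.032 in mock T over mock B cells became -0.023, that of -0.063 in B cells with sgRNA-P1 became 0.000 and that of -0.050 between the B-cell guides became -0.017 (-0.016 at 20 CPM). With sgRNA-P2 in B cells the median of -0.030 stayed at -0.025 after the trend (-0.013 at 20 CPM). In mock T over mock B cells the count past 1.5-fold in either direction, 7, became 8 after the trend. It became 4 at a minimum of 20 CPM and 4 among the 47 members without an expressed overlap or copy by the cut-offs above, since fewer members were counted. In B cells with sgRNA-P1 the count of 1 became 2 with no minimum (Mrps6 added) and 0 at 20 CPM (Mrpl55 left out), and with sgRNA-P2 the count of 0 became 1 with no minimum. The 38 members called between cell types became 23 of 43 at 20 CPM, 21 by DESeq2 (16 higher, 5 lower), 35 with total reads (27 higher, 8 lower) and 39 without the library of B cells with sgRNA-P1. The shares of all genes called in these settings were 73.2%, 55.6%, 64.1% and 66.4%, in the same order. The fit without that library has fewer residual degrees of freedom than the main fit, so its calls rest on a weaker measure of spread. All alternatives tried called 0 members for the guides.

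Leaving out either column of each group gave medians of -0.026 to -0.016 (T cells, sgRNA-P1), -0.055 to -0.054 (B cells, sgRNA-P1), -0.030 to -0.027 (sgRNA-P2), 0.038 to 0.054 (mock T over mock B) and -0.044 to -0.042 (between the B-cell guides), counts past 1.5-fold of 0, 1, 0, 7 and 0, and 39 to 41 members called between cell types. In the last count the shares of all genes called were 68.15% and 69.47%. These settings divide the same library and are no replicate check. The small-subunit share counted by structure was 32.3% and 32.7% in T cells and 31.1% to 31.3% in B cells. No paired analysis was possible because the 2 columns of each group are 1 library. The analysis without the 31 uncertain members and the share without Mrps5 were chosen after seeing the data. Depth limits the low members: with sgRNA-P1 in B cells the counting interval ran from -1.04 to -0.38 for Mrpl55 and from -1.40 to -0.06 for Mrps6.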

Other observations

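The members with an ETS core in the promoter window, 26 of 69, had a median of 0.11 in mock T over mock B cells, against 0.02 for the 43 without one, and -0.09 against -0.06 in B cells with sgRNA-P1. For the 12 with the YY1 letters the medians were -0.006 and -0.056, and for the 8 with the NRF1 letters 0.053 and 0.021. These are descriptions of 1 library per group, and no difference between them was tested.

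Of the 22 members whose start faces that of an expressed gene, 18 pairs had both genes at 5 CPM in B cells with sgRNA-P1. The log2 fold changes had the same direction in 9 of these pairs and lay within 0.1 of each other in 7. In mock T over mock B cells the same direction was seen in 11 of 19 pairs, and 5 pairs lay within 0.1. The pairs named here were chosen after their values were seen. Mrpl37 and Cyb5rl stood close together with sgRNA-P1 in B cells (-0.06 and -0.07), as did Mrpl50 and Zfp189 (0.21 and 0.18). Mrpl36 and its neighbour Ndufs6 were both lower in B cells with sgRNA-P1 (-0.28 and -0.49), and in B cells with sgRNA-P2 (-0.23 and -0.38, against the same mock library). Mrpl49 and Fau differed, at -0.06 and -0.38 with sgRNA-P1. Mrps12 and Sars2 stood at 0.01 and -0.24, and Mrpl32 and Psma2, a proteasome subunit, at 0.09 and -0.15. Mrpl30 and Mitd1 were both higher in mock T than in mock B cells, by 0.27 and 0.54.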
